A study of Mus musculus with 6 samples.

Results

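Dense granules are the smaller of the secretory granules of platelets, and the transcripts of 10 genes that serve their formation and loading were followed here in platelet RNA of control and pre-AML mice. The 10 genes were chosen by symbol, with earlier results of these data known: Hps1, Hps3, Hps4, Hps5, Hps6, Ap3b1, Ap3d1, Dtnbp1, Lyst and Slc18a2. All 10 were found among the 14975 genes of the deposited table. Platelets were drawn from young adult female mice on a C57BL/6 background, and the libraries labelled AML are called pre-AML and those labelled WT control, after the paper's names. The pre-AML recipients were irradiated and received cells derived from hematopoietic stem and progenitor cells transduced with an MLL-AF9 retrovirus. MLL-AF9 is a fusion oncogene of acute myeloid leukemia. The paper's methods describe primary recipients of the transduced cells and a secondary transplantation of GFP-positive cells from these into sub-lethally irradiated mice. The paper describes its pre-AML mice as sub-lethally irradiated. The controls were irradiated and received normal bone marrow. The paper places its pre-AML stage 1 week after transplantation, and the labels give no week. Each group has 3 libraries. The series' design text names 2 replicates per group and pools of 3 to 4 mice per library, whereas the paper names 3 independent mice, so the p-values measure only the spread between these libraries.

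Dense granules belong to the lysosome-related organelles, as do the melanosomes of pigment cells. Their cargo includes serotonin, ADP, ATP, calcium and polyphosphate, which are released when platelets are activated. Proteins bound for the granule are sorted in endosomes by the adaptor complex AP-3 and by the complexes BLOC-1, BLOC-2 and BLOC-3. Loss of their subunits causes Hermansky-Pudlak syndrome, in which pigment is reduced and bleeding is prolonged because dense granules are missing or empty. Loss of LYST causes Chediak-Higashi syndrome, with giant lysosome-related granules and a dense-granule defect. Serotonin itself is made mostly outside platelets, taken up at the plasma membrane by SLC6A4 and pumped into the granule by SLC18A2, also named VMAT2, which exchanges it for protons.

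The libraries held between 11936006 and 17779026 recovered reads on listed genes, the highest in pre-AML 3. Values are FPKM, read counts scaled to gene length and library size, so levels can be compared between genes. For a 2 kb transcript, 3 reads amount to 0.0643 to 0.128 FPKM. The ratio of the library size behind the FPKM values to these reads was 1.31 in pre-AML 3 and 0.983 to 1.01 elsewhere, so levels in that library are scaled lower than its listed reads alone would give. In a principal component analysis pre-AML 3 stood apart, at 41.9 on the first component against -12.7 to -2.12 in the other 5 libraries. All 8 platelet markers were detected in every library, with a summed level of 88558 to 112540 FPKM in the controls, 89782 and 91019 FPKM in pre-AML 1 and pre-AML 2, and 60459 FPKM in pre-AML 3. Pf4 made up most of this sum, and the summed FPKM of all listed genes was also lowest in pre-AML 3. Markers of other blood cells were counted over genes under 1 FPKM on average in controls, so low control sums follow from this choice. It leaves out Lyz2 and Fcer1g, and all 10 monocyte and macrophage markers together overlapped, at 4664 to 5316 FPKM (control) and 4871 to 5219 FPKM (pre-AML). The 8 neutrophil markers under 1 FPKM summed to 0.723 to 1.65 FPKM in the controls and to 1.34, 0.922 and 0.537 FPKM in pre-AML 1 to pre-AML 3. The 8 such monocyte and macrophage markers summed to at most 0.994 FPKM in any control, to 5.05 and 7.49 FPKM in pre-AML 1 and pre-AML 2, and to 259 FPKM in pre-AML 3, where none of the 10 listed markers of that type was at 0. The 6 such B cell markers summed to at most 0.894 FPKM in the controls and to 0.363, 4.38 and 58.8 FPKM across the pre-AML libraries in numerical order. The 7 such T and NK cell markers summed to 0.170 to 0.631 FPKM in the controls and to 9.57, 5.99 and 15.2 FPKM in pre-AML 1 to pre-AML 3. This sum was higher in all 3 pre-AML libraries, where Gzma alone had 7.25, 4.61 and 8.90 FPKM. Gzma, Prf1, Il2rb and Cd3g were above all controls in every pre-AML library, whereas Cd3e, Cd3d and Klrd1 overlapped between the groups. The part of these blood cells in the differences reported for the 10 genes was not tested.

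The 10 genes spanned a wide range of levels. In order of the mean over the 6 libraries they were Slc18a2 at 6.38 FPKM, Dtnbp1 at 4.08, Ap3b1 at 3.73, Ap3d1 at 2.67, Hps4 at 2.20, Lyst at 0.906, Hps1 at 0.887, Hps5 at 0.197, Hps6 at 0.107 and Hps3 at 0.0415. Slc18a2 thus lay at the 87.4th percentile of all listed genes and Hps3 at the 21.6th. The ranges of neighbours over the 6 libraries overlapped except at Hps4 above Lyst and at Hps1 above Hps5. Slc18a2 nevertheless stood above Dtnbp1 within each of the 6 libraries. The serotonin pump, the AP-3 subunits and dysbindin were measured on 146 to 678 reads per library, whereas the BLOC-2 genes were close to the detection limit. The total of the 10 genes was 22.9, 20.1 and 21.5 FPKM in control 1 to control 3 and 21.7, 21.2 and 19.8 FPKM in pre-AML 1 to pre-AML 3, so the groups overlapped in the sum.

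**Figure D1:**
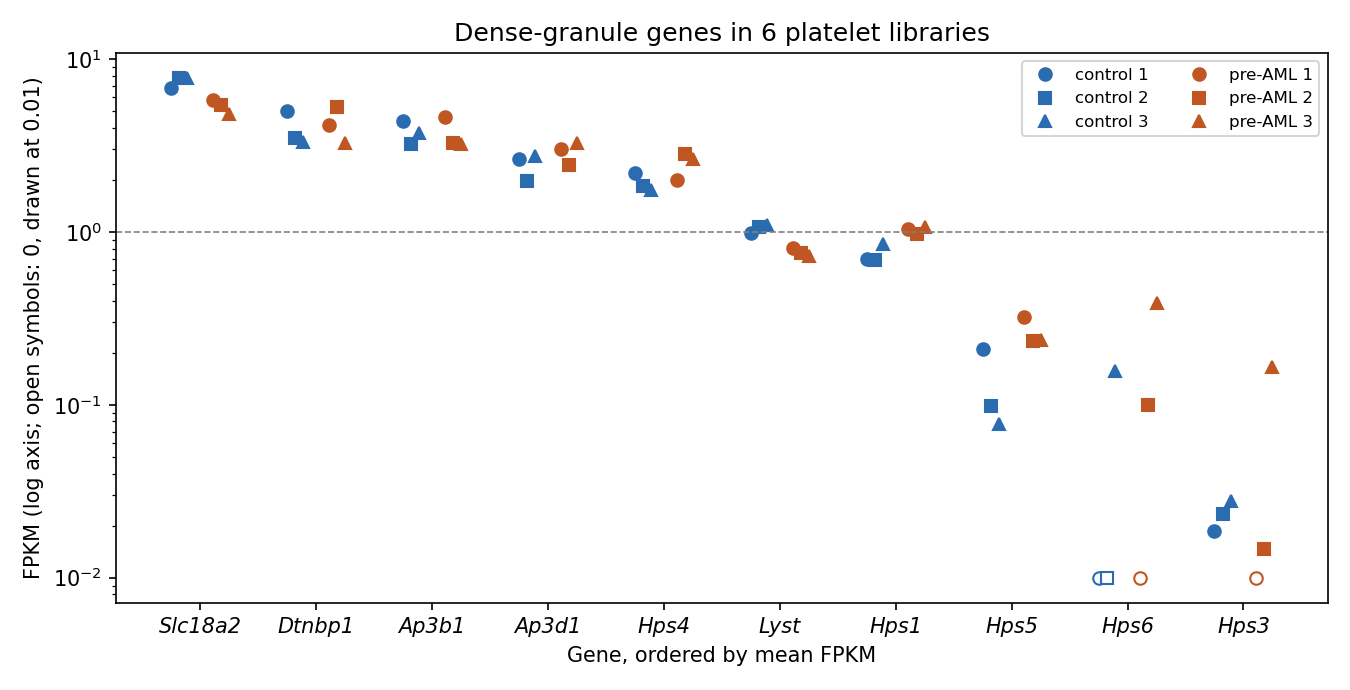
FPKM of the 10 dense-granule genes in the 3 control (blue) and 3 pre-AML (orange) libraries on a log axis, with the genes ordered by mean level and the dashed line at 1 FPKM, the minimum mean for testing. Slc18a2 is the most abundant, at 4.79 to 7.77 FPKM, and Hps5, Hps6 and Hps3 lie under 0.4 FPKM in every library.

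To compare the groups, limma-trend was run on log2(FPKM + 1) over the 4412 genes that averaged 1 FPKM or more, with Benjamini-Hochberg adjustment. Of the 10 genes, 5 passed this minimum: Slc18a2, Dtnbp1, Ap3b1, Ap3d1 and Hps4. None of the 5 had an adjusted p under 0.05, where 0.0227% of all tested genes did, that is 1 gene, granzyme A (Gzma). At an unadjusted p under 0.05, 1 of the 5 was lower in pre-AML platelets (Slc18a2) and 0 were higher, against 6.53% and 2.56% of all tested genes (9.09% in either direction), and limma-voom on recovered reads also placed 0 of the 8 genes it tested past the adjusted threshold. Counted over the deposited values, the groups did not overlap for 4 of the 10 genes. Slc18a2 and Lyst were lower and Hps1 and Hps5 higher in all 3 pre-AML libraries. Slc18a2 and Lyst did overlap between the groups once libraries were rescaled to the same sum of FPKM. Among the 8789 genes averaging 10 recovered reads or more, which include 8 of the 10, groups did not overlap in 17.0%, with 8.49% lower and 8.51% higher. Over the 4412 tested genes the share was 18.9%, with 12.8% lower and 6.14% higher. With 3 against 3 libraries, the exact two-sided permutation test cannot go below p = 0.1, and these 4 genes reached that value. Fewer platelets that carry a transcript and less of it per platelet cannot be told apart in such bulk libraries.

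Slc18a2 (Entrez 214084), the vesicular monoamine transporter that fills dense granules with serotonin, had the largest difference among the 5 tested genes. Its level was 6.77, 7.74 and 7.77 FPKM in controls 1 to 3, and 5.80, 5.39 and 4.79 FPKM in the pre-AML libraries 1 to 3. Every pre-AML library thus lay below every control in FPKM, and the third was the lowest. The summed FPKM of all listed genes was 376148 in pre-AML 3 and 508605 to 541784 elsewhere. Divided by that sum, Slc18a2 in pre-AML 3 lay above control 1 and was the highest of the pre-AML libraries. The reads behind the FPKM levels were 415, 569 and 483 in the controls and 403, 425 and 584 in the pre-AML libraries. The mean was 7.42 ± 0.570 (control) versus 5.33 ± 0.506 FPKM (pre-AML, SD, n = 3 each), a ratio of 0.717. On the log2(FPKM + 1) scale the fold change was -0.41 (standard error 0.13, 95% interval -0.72 to -0.11), with an unadjusted p of 0.0138 and an adjusted p of 0.522 from limma-trend. By p it ranked 93 among the 4412 tested genes, and it did not pass the adjustment over all genes. With libraries rescaled to the same sum, the fold change was -0.27 at an unadjusted p of 0.0756 from limma-trend.

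The lower level of Slc18a2 was also present without pre-AML 3, where the log2 fold change was -0.35, and leaving out each library in turn gave values from -0.47 to -0.35. Its share in the summed FPKM of the 10 genes, itself included, was 29.6%, 38.5% and 36.1% in the controls. In the pre-AML libraries the share was 26.7%, 25.4% and 24.2%, without overlap. A single scaling factor per library does not change this share, but trends with GC content can. Its ratio to Ap3d1 was 2.55, 3.95 and 2.84 in the controls and 1.93, 2.22 and 1.47 in the pre-AML libraries. Its ratio to Hps4 was 3.10 to 4.45 in the controls and 1.81 to 2.90 in the pre-AML libraries. The ratio to Dtnbp1 overlapped between the groups, at 1.35, 2.23 and 2.36 against 1.39, 1.02 and 1.47. The ratio to Ap3b1 overlapped too, with 6.77 over 4.38 FPKM in control 1 below 5.39 over 3.25 FPKM in pre-AML 2. In GC content Ap3b1, at 48.2%, is close to Slc18a2 at 47.2%, whereas Ap3d1 and Hps4 have 55.3% and 55.9%. With each library's trends with GC content and gene length removed, the log2 fold change was -0.33. Mast cells and basophils also use this transporter, and their 6 listed markers summed to 1.69 to 2.89 FPKM in the controls and 2.22 to 3.64 FPKM in the pre-AML libraries, the highest in pre-AML 1. Their most abundant gene, Cma1, had 1.33, 1.30 and 0.771 FPKM in the controls and 2.55, 1.64 and 0.865 FPKM in the pre-AML libraries. Of the others, chosen after their values were seen, Hdc reached 1.06 FPKM, Cpa3 0.437 FPKM and Kit 0.0565 FPKM. The part of these cells in the level of Slc18a2 was not tested.

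The gene spans chromosome 19 (GRCm38), positions 59260896 to 59296012, plus strand. Its exons share 111 bases, 2.12% of their length, with exons of the antisense gene Gm29261, and the library kit does not mark strand, so reads there cannot be assigned to one of them. The 200 bases before the RefSeq start sites of Slc18a2, Lyst and Hps1, the genes with at least 40 reads in every library whose groups did not overlap, are shown for their sequence context. They were searched on both strands for the letters AGATAA (bound by the erythroid and megakaryocytic factors of that family), for CCGGAAG (bound by factors of the ETS family), for the E-box CACGTG and for the box CCAAT. These occur in 7.80%, 6.29%, 5.26% and 29.3% of 32851 RefSeq promoter windows of the same length. These motifs do not overlap one another in the windows shown, and capitals mark a match on either strand.
Slc18a2 (chr19:59260678-59260877, plus strand, GRCm38.p6): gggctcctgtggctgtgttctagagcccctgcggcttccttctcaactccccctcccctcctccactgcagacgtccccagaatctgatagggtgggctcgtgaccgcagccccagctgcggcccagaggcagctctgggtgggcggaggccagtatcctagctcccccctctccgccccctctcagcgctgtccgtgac
Lyst (chr13:13590209-13590408, plus strand, GRCm38.p6): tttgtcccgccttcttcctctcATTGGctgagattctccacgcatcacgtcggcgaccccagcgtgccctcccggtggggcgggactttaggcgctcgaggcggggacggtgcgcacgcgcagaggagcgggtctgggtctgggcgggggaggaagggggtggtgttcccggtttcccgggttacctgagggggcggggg
Hps1 (chr19:42779979-42780178, minus strand, GRCm38.p6): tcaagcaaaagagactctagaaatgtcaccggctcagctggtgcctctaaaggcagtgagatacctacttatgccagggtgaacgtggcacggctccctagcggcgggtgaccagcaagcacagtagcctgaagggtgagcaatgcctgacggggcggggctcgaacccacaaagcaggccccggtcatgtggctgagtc
The window of Lyst holds 1 CCAAT box, 178 bases before the start, and those of Slc18a2 and Hps1 hold none of the 4 motifs in these letters. RefSeq lists a second start for Hps1, whose window has 50.5% G and C and also none of the motifs. The 3 windows shown are rich in G and C, with 67.5% in Slc18a2, 69.5% in Lyst and 59.0% in Hps1. Of the other members, the windows of Hps3 and Hps5, which both encode BLOC-2 subunits, hold a CACGTG 15 and 192 bases before the start, and that of Ap3d1 holds a CCGGAAG and 2 CCAAT boxes.

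Lyst (Entrez 17101) encodes the BEACH-domain protein that limits the size of lysosome-related granules. It had 0.981, 1.07 and 1.10 FPKM in control 1 to control 3, and 0.805, 0.759 and 0.729 FPKM in pre-AML 1 to pre-AML 3. In FPKM all pre-AML libraries lay below all controls, and the spread within groups was small, with SDs of 0.0604 and 0.0382 FPKM. Both depend on the scaling of pre-AML 3. Divided by the summed FPKM of its library, Lyst in pre-AML 3 lay above Lyst in control 1. Its mean was 1.05 ± 0.0604 (control) versus 0.765 ± 0.0382 FPKM (pre-AML, SD, n = 3 each), a ratio of 0.729. Its mean over both groups was below the minimum of 1 FPKM, although its exons of 17459 bases collected 187 to 297 reads per library. Limma-trend over genes averaging 10 reads or more gave a log2 fold change of -0.21 with a standard error of 0.13, at an unadjusted p of 0.130 and an adjusted p of 0.634. On the recovered reads themselves limma-voom gave -0.46 (standard error 0.19), with an unadjusted p of 0.0317 and an adjusted p of 0.668. Scaled to the recovered reads, limma-voom gave -0.31 at an unadjusted p of 0.121. Lyst is on chromosome 13 from 13590397 to 13778803. Leukocytes also express Lyst. In pre-AML 3, where the monocyte and B cell markers under 1 FPKM in controls summed highest, Lyst had 0.729 FPKM. The part of these cells in its level was not tested.

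BLOC-3 consists of HPS1 and HPS4 and activates the small GTPases RAB32 and RAB38. Hps1 (Entrez 192236) had 0.698, 0.692 and 0.847 FPKM in the controls and 1.04, 0.974 and 1.07 FPKM in pre-AML 1 to pre-AML 3, so that the groups were fully separated. Its mean was 0.746 ± 0.0876 (control) versus 1.03 ± 0.0488 FPKM (pre-AML, SD, n = 3 each), a ratio of 1.38 on 48 to 146 reads per library. The log2 fold change over genes with at least 10 reads was 0.22 (standard error 0.13, adjusted p of 0.634 from limma-trend). Hps4 (Entrez 192232), its partner, had 2.18, 1.84 and 1.75 FPKM in the controls and 2.00, 2.80 and 2.65 FPKM in the pre-AML libraries, where pre-AML 1 lay among the controls. Its log2 fold change was 0.25 (95% interval -0.12 to 0.62, adjusted p of 0.557 from limma-trend). Hps4 was the more abundant of the pair in every library, and the ratio of Hps1 to Hps4 lay between 0.320 and 0.520 with the groups overlapping. Hps1 shares 4.12% and Hps4 3.37% of their exon bases with genes on the opposite strand.

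**Figure D2:**
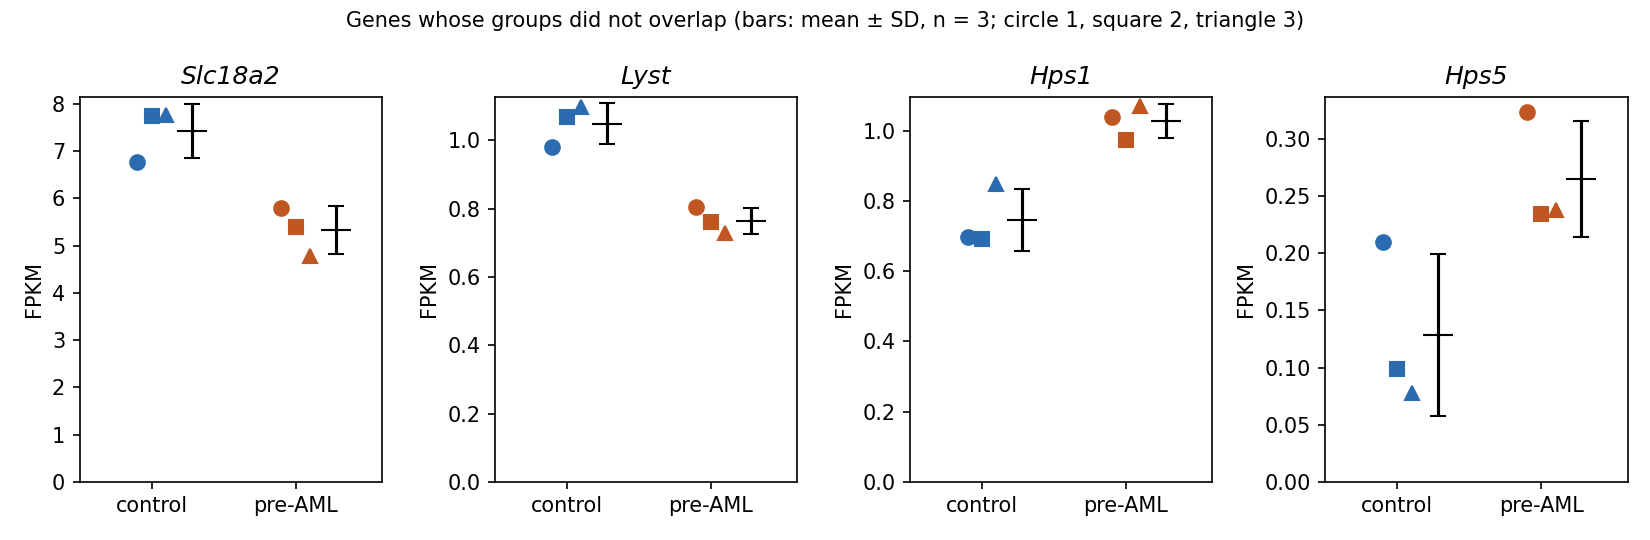
FPKM of Slc18a2, Lyst, Hps1 and Hps5 in each library (circle 1, square 2 and triangle 3 of each group; linear axes from 0), with black bars for the mean and SD of 3 libraries. Slc18a2 and Lyst are lower, and Hps1 and Hps5 higher, in all 3 pre-AML libraries, with the narrowest gap in Hps5, between 0.210 and 0.235 FPKM.

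BLOC-2 consists of HPS3, HPS5 and HPS6 and directs endosomal carriers to the maturing organelle. Its 3 genes were the least abundant of the set. Hps5 (Entrez 246694) had 0.210, 0.0984 and 0.0776 FPKM in the controls and 0.324, 0.235 and 0.237 FPKM in the pre-AML libraries, from 16, 9 and 6 reads against 28, 23 and 36. The groups did not overlap, and limma-voom on these reads gave a log2 fold change of 1.10 with a standard error of 0.64 (adjusted p of 0.668). Hps6 (Entrez 20170) was listed at 0 in control 1, control 2 and pre-AML 1, and had 5, 4 and 24 reads in control 3, pre-AML 2 and pre-AML 3. Hps3 (Entrez 12807) had 2, 3 and 3 reads in the controls, 0 and 2 in pre-AML 1 and pre-AML 2, and 35 in pre-AML 3. The highest levels of Hps6 and Hps3, 0.386 and 0.165 FPKM, were thus both in pre-AML 3. Of the markers under 1 FPKM in controls, those of monocytes, B cells, and T and NK cells summed highest in that library. Those of neutrophils were lowest there. The part of these cells in the values of Hps6 and Hps3 was not tested. Cp, whose exons overlap 108 bases of Hps3 on the opposite strand, had 2 reads in pre-AML 3. At this depth no difference between the groups was detectable for Hps3 or Hps6.

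AP-3 gathers cargo on endosomes and its β3A and δ subunits are encoded by Ap3b1 and Ap3d1. Ap3b1 (Entrez 11774) had 4.38, 3.20 and 3.75 FPKM in the controls and 4.59, 3.25 and 3.22 FPKM in the pre-AML libraries. The groups overlapped fully, with a log2 fold change of -0.03 (95% interval -0.42 to 0.36, adjusted p of 0.948 from limma-trend). Ap3d1 (Entrez 11776) had 2.66, 1.96 and 2.73 FPKM in the controls and 3.00, 2.42 and 3.26 FPKM in the pre-AML libraries, with a log2 fold change of 0.18 (95% interval -0.20 to 0.55, adjusted p of 0.654). The ratio of Ap3b1 to Ap3d1 was 1.65, 1.63 and 1.37 in the controls and 1.53, 1.34 and 0.989 in the pre-AML libraries. Dtnbp1 (Entrez 94245) encodes dysbindin, a BLOC-1 subunit. It had 5.0, 3.47 and 3.29 FPKM in the controls and 4.17, 5.26 and 3.25 FPKM in the pre-AML libraries, and its log2 fold change of 0.09 (95% interval -0.36 to 0.54, adjusted p of 0.869) was within the spread of either group. Of the fold change of Slc18a2, -0.41, the interval of Ap3b1 includes the value and that of Dtnbp1 does not.

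The direction of the differences varied with base composition among the 8 genes averaging 10 reads or more. Lyst, Slc18a2 and Ap3b1, with 45.6%, 47.2% and 48.2% GC in their longest transcript, had fold changes below 0. Hps5 with 49.2% and Ap3d1, Dtnbp1, Hps4 and Hps1 with 55.3%, 55.7%, 55.9% and 57.0% had fold changes above 0. Hps3 and Hps6, with fewer reads, had 43.6% and 59.7% GC and fold changes of 0.05 and 0.13 without a filter, so Hps3, the lowest in GC, did not follow this order. Over all tested genes the deviation of a library from the gene's mean was correlated with GC content, at Spearman's rho of -0.40 to -0.30 in the controls and -0.05, 0.31 and 0.49 in pre-AML 1 to pre-AML 3, a description across genes that are not independent. With the trends with GC content and length removed over the genes with at least 10 reads, the log2 fold change of Slc18a2 stayed at -0.41 and that of Lyst was -0.19. Of the 4 GC-rich genes, Hps1 went from 0.22 to 0.06, Hps4 from 0.25 to 0.09, Ap3d1 from 0.18 to 0.08 and Dtnbp1 from 0.09 to -0.08.

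**Figure D3:**
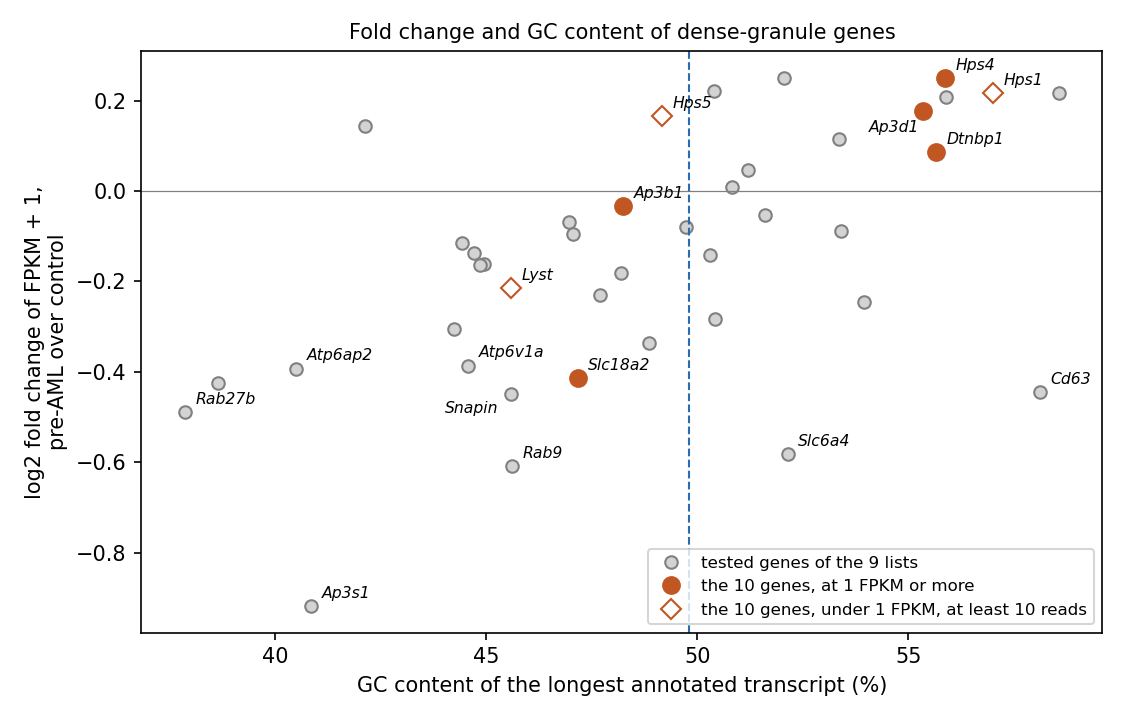
GC content of the longest annotated transcript (%) against the log2 fold change of FPKM + 1 between pre-AML and control platelets. Grey points are the tested genes of the dense-granule lists. Orange points are the 8 of the 10 genes averaging at least 10 reads, with open diamonds for those under 1 FPKM. Hps3 and Hps6 are not drawn. The dashed line is the median GC content of all tested genes, 49.8%. Hps1, Hps4, Ap3d1 and Dtnbp1 lie above 55% GC and above 0, and Slc18a2, Lyst and Ap3b1 lie below the median GC content and below 0. Hps5, at 49.2%, lies below the median GC content and above 0.

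Other genes of dense-granule formation and loading were taken from 9 lists of 66 genes, of which 64 were in the table and 33 were tested. None had an adjusted p under 0.05 in limma-trend, and the same 0 resulted from limma-voom. At an unadjusted p under 0.05, 7 of the 33 were lower and 0 were higher, and the median log2 fold change was -0.16 against -0.06 over all 4412 tested genes, of which 6.53% were lower and 2.56% higher at that p. The split depended on the scaling: with libraries rescaled to the same sum, 5 list genes were lower and 3 higher (Bloc1s1, Atp6v1f and Atp6v0c), at a median of -0.003 against 0.08 over all genes. Quantile normalization gave 6 lower and 3 higher, and array weights 8 lower and 4 higher. The number of lower genes was 3 without control 1 and 4 without control 2, where 3.03% and 4.17% of all genes were lower. The 7 genes were Snapin, Ap3s1, Rab27b, Rab9, Slc6a4, Atp6v1a and Atp6ap2, and each had an adjusted p of 0.522. Their median GC content was 44.6%, against 49.8% over all tested genes. With GC and length trends removed, 4 list genes were lower at that p (Ap3s1, Rab9, Slc6a4 and Cd63) and 1 was higher (Ap3m1), and 3.55% of all genes were lower.

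Slc6a4, the serotonin transporter of the plasma membrane, is the partner of Slc18a2 on the path of serotonin into the granule. It was far more abundant, with 451, 305 and 307 FPKM in control 1 to control 3 and 253, 285 and 174 FPKM in pre-AML 1 to pre-AML 3. The pre-AML libraries lay below all controls, though pre-AML 2 and control 2 were close. Its mean was 354 ± 83.5 (control) versus 237 ± 57.6 FPKM (pre-AML, SD, n = 3 each), with a log2 fold change of -0.58 (standard error 0.23, unadjusted p of 0.0331 from limma-trend). With 52.1% GC it was the only one of the 7 above the median of all genes, and its fold change was -0.63 with the trends removed and -0.37 without pre-AML 3, while without control 1 it was -0.40 at an unadjusted p of 0.132. Abcc4, a nucleotide transporter of the granule, had a fold change of -0.08. Of the enzymes and receptor around serotonin, Ddc, which makes serotonin from its precursor, was the only one tested, at -0.34 (adjusted p of 0.534) and at -0.17 without pre-AML 3, and Htr2a, a serotonin receptor, had 0.295 FPKM or less in every library.

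Among the other AP-3 subunits, Ap3s1, for the σ3A subunit, had the largest difference of the lists. It had 16.9, 13.3 and 12.9 FPKM in the controls and 9.93, 8.51 and 4.07 FPKM in pre-AML 1 to pre-AML 3. All pre-AML libraries lay below all controls and pre-AML 3 was the lowest. The log2 fold change was -0.92 (standard error 0.27, unadjusted p of 0.00956 from limma-trend), with -0.58 when pre-AML 3 was left out and -0.64 when the trends were removed, for a gene of 40.9% GC. Ap3m1, for the μ3A subunit, stood at 1.13 ± 0.0735 (control) versus 1.36 ± 0.238 FPKM (pre-AML, SD, n = 3 each). The estimates for the subunits of this complex differed in sign: Ap3s1 and Ap3b1 had fold changes below 0, and Ap3d1 and Ap3m1 above 0. Of these 4, only Ap3s1 had an unadjusted p under 0.05 in limma-trend, so the direction of the others is not settled. Ap3b1 was at 0.10 with libraries rescaled to the same sum.

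Of the Rab list, Rab27b, which docks dense granules for secretion, had 34.0, 36.5 and 36.9 FPKM in the controls and 30.5, 27.5 and 19.0 FPKM in the pre-AML libraries (log2 fold change -0.49, unadjusted p of 0.0272). Without pre-AML 3 it was -0.29, and with the trends removed -0.15, for a gene of 37.9% GC. Rab9, a GTPase of late endosomes, had 8.13, 8.49 and 8.55 FPKM in the controls and 6.75, 5.38 and 3.72 FPKM in the pre-AML libraries (log2 fold change -0.61, unadjusted p of 0.0107), and was at -0.50 with the trends removed. In both genes all pre-AML libraries lay below all controls. All 5 tested genes of this list had fold changes below 0, as did 2583 of all 4412 tested genes. The median of the list was -0.30. Rab32, a GTPase that BLOC-3 activates, and Rab27a were among the 5 and were chosen after their values were seen. Rab32, at -0.23, had 5.94, 2.34 and 2.87 FPKM in the controls and 2.35, 2.89 and 3.28 FPKM in the pre-AML libraries. Rab27a, at -0.07, had means of 1.05 (control) and 1.08 FPKM (pre-AML).

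The 4 tested BLOC-1 subunits had a median fold change of -0.20, or -0.09 with libraries rescaled to the same sum. Snapin had 17.2 ± 2.62 (control) versus 12.5 ± 2.81 FPKM (pre-AML, SD, n = 3 each), with overlap between the groups and a fold change of -0.45, or -0.27 without pre-AML 3. Bloc1s1 was the most abundant, at 42.6 ± 0.892 and 49.8 ± 5.13 FPKM, and was the only one with a fold change above 0, at 0.22. With the trends removed that value was 0.00. Of the HOPS and VPS33 proteins, which tether endosomes and lysosomes, 2 of 8 were tested, with Vps41 at -0.14 and Vipas39 at 0.22. These became 0.05 without control 1 for Vps41 and 0.07 without pre-AML 2 for Vipas39. None of the 8 other BEACH proteins reached 1 FPKM on average. Nbeal2, needed for the α granules, had 0.312 to 0.968 FPKM and Nbea 0.343 to 0.770 FPKM over the 6 libraries.

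The membrane proteins of the granule were abundant. Lamp1 had 237 ± 1.16 (control) versus 230 ± 20.2 FPKM (pre-AML, SD, n = 3 each), and Lamp2 had 138 ± 10.9 and 106 ± 33.2 FPKM with 69.1 FPKM in pre-AML 3. The Lamp2 fold change was -0.42, or -0.14 without that library. Cd63, chosen after its values were seen, had 33.2, 21.2 and 20.6 FPKM in the controls and 18.6, 18.4 and 16.1 FPKM in the pre-AML libraries (log2 fold change -0.44, unadjusted p of 0.0505). The vacuolar proton pump, which builds the gradient that SLC18A2 uses, had 14 tested subunits and accessory proteins with a median fold change of -0.10, or 0.04 with libraries rescaled to the same sum. Of these, 5 had a fold change above 0 and 9 below, with Atp6v1a at -0.39 and Atp6ap2 at -0.39. Without pre-AML 3 both missed an unadjusted p of 0.05, at -0.27 and -0.24. Its most abundant members were Atp6v1f at 1047 ± 46.5 (control) versus 1145 ± 194 FPKM (pre-AML, SD, n = 3 each), and Atp6v0e at 294 ± 17.7 and 266 ± 57.8 FPKM. Their fold changes were 0.11 and -0.16, and 0.26 and 0.03 without pre-AML 3. Atp6v1f was at 0.29 (unadjusted p of 0.00369 from limma-trend) with libraries rescaled to the same sum and at 0.01 with the trends removed.

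**Figure D4:**
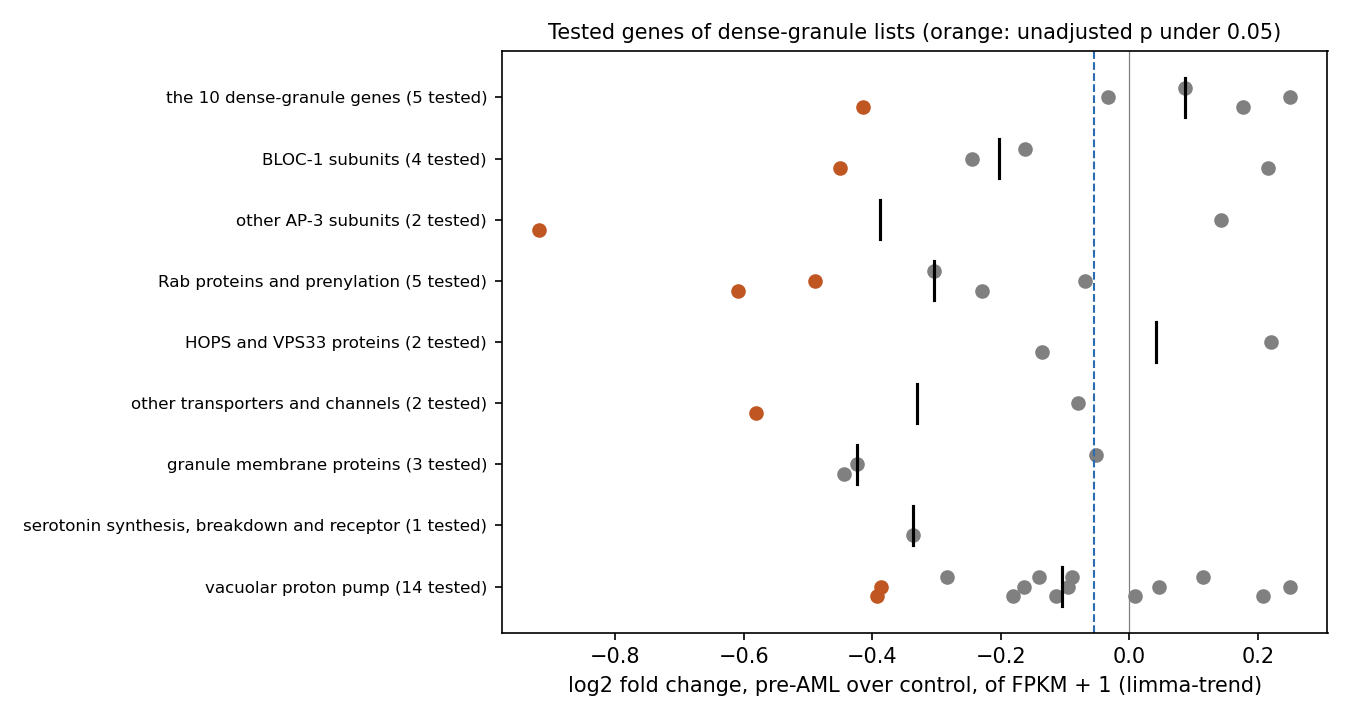
Log2 fold change of FPKM + 1 between pre-AML and control platelets (horizontal axis) for each tested gene of the set of 10 and of 8 related lists with a tested gene, with black bars for the median of each list and the blue dashed line for the median of all tested genes, -0.06. Orange points have an unadjusted p under 0.05, and all 8 of them, Slc18a2 included, lie below 0.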

How the data were processed

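Platelets were purified by depleting CD45 and Ter119 positive cells, and cDNA was made with a SMART-Seq2 protocol and a Nextera XT kit. The authors mapped reads to mm10 with STAR and used DESeq2, and they deposited FPKM values for 14975 genes and 6 libraries. The counting program and annotation are not given in the sources used here. Columns were matched to samples by name, and 0 columns were left out. Gene lengths and GC content came from GENCODE M21 (GRCm38), which matched 14910 genes. FPKM times length gave whole reads, within 0.01 of a read, for 81.4% of values above 0 and for all 10 members, and these recovered reads show the depth. Read numbers carry counting error, while the printed intervals come from the spread between libraries.

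The test was limma-trend (limma 3.58.1, R 4.3.3) on log2(FPKM + 1) without covariates, for genes averaging 1 FPKM or more, adjusted by Benjamini-Hochberg over all tested genes at a threshold of 0.05. The pseudocount of 1 understates changes of low genes. The fit was tested on simulated data with larger fold changes than those of the 10 members. The simulation held no outlying library and no GC trend, so it does not show how the fit performs on these libraries. Exact permutation tests used scipy 1.17.1, and Python was 3.11.15. Named genes were the 10 members, the 2 most abundant genes of each list, list genes at an unadjusted p under 0.05 and the highest gene of each marker list. Others are marked as chosen after seeing values. The members and lists were chosen with earlier results of these data known. Promoter sequences are RefSeq's (GRCm38.p6), found for all 10 members. The 7 marker lists cover platelets, erythroid cells, neutrophils, monocytes and macrophages, B cells, T and NK cells, and mast cells and basophils.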

Additional observations from a re-analysis of the deposited data

How the results depend on the processing

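In all, 17 alternatives were run, of which 3 were chosen after seeing the data (a minimum of 10 recovered reads, the same with GC and length trends removed, and limma-voom scaled to the recovered reads). None of the members passed the adjusted threshold in any of them (0 of 5 to 10 tested). The count of all genes past the threshold, 1 in the main analysis, was 2 with array weights and 0 with no filter, with libraries rescaled to the same sum, and with limma-voom under either scaling. Leaving out each library in turn gave 0 to 2, with 0 without control 1, control 3 or pre-AML 1 and 2 without pre-AML 3. With the replicate number as a block it was 1 for all genes and 0 for the members. Same-numbered libraries did not deviate together (Pearson's r across genes of -0.04, -0.12 and -0.17), and no library correlated best with its own number. Slc18a2 stayed below 0 in all 17, from -0.49 to -0.27, at an unadjusted p of 0.00676 to 0.0756 and an adjusted p of 0.259 to 0.747. Its unadjusted p was above 0.05 in 1 of them, the rescaling to the same sum, which moved the median of all genes from -0.06 to 0.08. Relative to that median Slc18a2 was at -0.35. With this rescaling the groups overlapped for Slc18a2 and for Lyst. The same rescaling turned the split of unadjusted calls from 113 higher and 288 lower to 272 and 196. Ap3b1 stayed below 0 in 11 of 17, Dtnbp1 above 0 in 13, and Ap3d1 and Hps4 above 0 in all 17. Depth limits Hps3, Hps5 and Hps6.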

Other observations

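Several further genes of dense-granule function, named after their values were seen, had their highest level in pre-AML 3. That library also had the highest sums of monocyte and B cell markers, counted over genes under 1 FPKM in controls. Tcirg1, a subunit of the proton pump used in osteoclasts and lysosomes, had 0.124 FPKM or less in the other 5 libraries and 2.62 FPKM in pre-AML 3. Slc17a9, a nucleotide transporter, was listed at 0 in 4 libraries and had 0.603 FPKM there, and Tpcn2, an endolysosomal cation channel, was listed at 0 in 3 libraries and had 0.294 FPKM there. Rab27a, the paralog of Rab27b, had 2.12 FPKM in pre-AML 3 and 0.326 and 0.806 FPKM in pre-AML 1 and pre-AML 2, against 0.973 to 1.16 FPKM in the controls, so the paralogs stood at opposite ends in this library, with Rab27b at its lowest. The neutrophil markers summed to 2.05 to 2.98 FPKM in the controls and 3.73, 1.11 and 0.661 FPKM in pre-AML 1 to pre-AML 3. The erythroid markers summed to 2350 to 2652 FPKM in the controls and 2377 to 2991 FPKM in the pre-AML libraries. The T and NK cell markers summed to 19.1 to 28.9 and 33.9 to 37.8 FPKM with Nkg7 included. The marker with the highest level of each list was Pf4 for platelets (58030 to 79255 FPKM in the controls, 38150 FPKM in pre-AML 3), Hba-a1 for erythroid cells (up to 2023 FPKM), S100a8 for neutrophils (up to 2.38 FPKM) and Lyz2 for monocytes and macrophages (up to 3093 FPKM). For the lymphoid and mast cell lists it was Cd74 for B cells (1.48 FPKM or less in the controls and 168 FPKM in pre-AML 3), Nkg7 for T and NK cells (up to 28.2 FPKM) and Cma1 for mast cells and basophils (up to 2.55 FPKM).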
